A study of Homo sapiens with 8 samples.

Results

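The MYC and MAX network was followed in RKO cells after knockdown of A20. The 10 genes were chosen by name, as the MYC genes, their shared partner MAX, the antagonists of MYC and the MAX-like partner MLX. They are MYC, MYCN, MYCL, MAX, MXD1, MXD3, MXD4, MNT, MGA and MLX, out of 57992 genes in the count tables. RKO is a human cell line from a colon carcinoma, in which beta-catenin signaling is intact. Of the 8 samples, 4 had received control siRNA and the other 4 A20 siRNA, and all 8 received recombinant human wnt3a at 50 ng/mL for 24 hours, so the comparison is of the 2 siRNAs in stimulated cells and no unstimulated cells were compared. Replicates carried the numbers 1 to 4 in each group, and the sources used here do not say whether they were separate experiments or parallel cultures, so p-values measure only the spread between these samples.

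The proteins of this network share a basic helix-loop-helix leucine zipper and bind DNA as pairs. MYC, MYCN and MYCL pair with MAX at the E-box, whose preferred form is CACGTG, and activate genes of ribosome production, metabolism and cell division. The MXD proteins, MNT and MGA also pair with MAX and occupy the same sites as repressors, MXD proteins and MNT through SIN3 and histone deacetylases and MGA within a variant Polycomb complex. MLX pairs with MXD1, MXD4 and MNT and with the glucose-responsive factors MLXIP and MLXIPL. In intestinal epithelium MYC is a well-known transcriptional target of beta-catenin and TCF4.

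The E-box was looked for in the 250 bases before the annotated starts of the network genes, because it is the site that the network's own proteins read. RefSeq promoters on GRCh38.p14 were matched for 9 of the 10 genes, as 12 starts. The promoter of MYC was not among them and was not searched. The 6 letters CACGTG, which read the same on both strands, were found before 3 of these starts, those of MXD4, MNT and MLX, and before 6.34% of all 35116 promoters in the table. Capitals mark the matches, given with 12 bases on each side, on the strand of the gene, at chr4:2262330-2262359 (minus strand), chr17:2401236-2401265 (minus strand) and chr17:42567038-42567067 (plus strand).
MXD4: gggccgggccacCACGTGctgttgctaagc
MNT: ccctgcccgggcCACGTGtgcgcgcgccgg
MLX: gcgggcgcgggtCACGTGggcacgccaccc
The first base of the match lay 238, 193 and 50 bases before the start in MXD4, MNT and MLX. A match is a description of the sequence and does not show binding.

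Total counts on genes were between 21226451 and 34194273 per sample. TNFAIP3, which encodes A20, was at 4.92, 5.83, 5.59 and 5.54 CPM (counts scaled to library size with edgeR's TMM factors, as counts-per-million) in control replicates 1 to 4, and at 3.47, 3.01, 3.40 and 3.43 CPM with A20 siRNA. The groups did not overlap, and 60.8% of the control mean remained (log2 fold change -0.71, standard error 0.10, edgeR quasi-likelihood test, Benjamini-Hochberg adjusted p = 0.00258). The epithelial markers EPCAM, KRT8, KRT18 and CDX2 were expressed in all 8 samples (summed with the other 5 epithelial markers, 140.6 to 150.0 CPM in the control group and 138.4 to 146.4 CPM after A20 siRNA), whereas CDH1, KRT20 and CDX1 had no count and VIL1 and LGALS4 had at most 2 counts in a sample. Of the 3 leukocyte markers PTPRC and CD3E had no count, and summed markers were at 0.739 to 1.42 CPM for leukocytes, all from CD68, at most 4 counts in a sample for 3 fibroblast markers and at most 3 counts for 2 endothelial markers. Across genes, deviations of each library from the mean of all 8 followed exonic length, with Spearman's rho of 0.079, -0.164, -0.111 and -0.200 in control replicates 1 to 4 and 0.069, -0.082, 0.144 and 0.178 in A20 siRNA replicates 1 to 4. Control replicate 1 and A20 siRNA replicate 2 had the opposite sign to the rest of their groups. Results were therefore also computed without these 2 libraries, an alternative chosen after seeing the data. In the libraries that remain, rho was negative in every control and positive in every A20 siRNA sample. The siRNA and the length trend therefore cannot be told apart in that alternative.

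A20 siRNA was not followed by a detectable change in any network transcript. MYCN had no count, the other 9 passed the filter on low counts, and 0 of these 9 had an adjusted p under 0.05 with edgeR and 0 with limma-voom. DESeq2 also called 0, but it gave MYCL and MXD3 no adjusted p, so they could not be called there. Over all 13412 genes tested with edgeR, 1.25% were called, 0.611% as lower and 0.634% as higher after A20 siRNA, and the count of 0 among 9 is to be read beside that share. At an unadjusted p under 0.05, 1 of the 9 passed, MGA, against 16.2% of all tested genes. For all 9 the CPM values of the groups overlapped, whereas 7.61% of all tested genes did not overlap. The median log2 fold change of the 9 was 0.015, with 5 above and 4 below 0, and that of all tested genes was 0.0027.

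MYC was the dominant MYC gene, and its group means differed by less than the spread between replicates. MYC (ENSG00000136997.15, chromosome 8, 127735434 to 127742951, GRCh38) encodes the activating partner of MAX, and between 8258 and 12797 reads per sample were assigned to it. Control replicates 1 to 4 had 373.5, 381.9, 387.0 and 392.7 CPM, and A20 siRNA replicates 1 to 4 had 373.2, 381.3, 391.3 and 388.2 CPM. The groups covered nearly the same range, and no sample stood apart. The means were 383.8 ± 8.16 CPM (SD, n = 4) and 383.5 ± 8.08 CPM (SD, n = 4), a log2 fold change of -0.0012 (standard error 0.023, edgeR adjusted p = 0.988). The 95% interval of the log2 fold change ran from -0.050 to 0.047, which is from -3.39% to 3.34%. The sign of the estimate turned positive without A20 siRNA replicate 1 (0.0089), control replicate 3 or control replicate 4.

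The other MYC genes contributed little. MYCL (ENSG00000116990.10, chromosome 1, 39895428 to 39902256), a paralog of MYC first described in lung cancer, had 59 to 99 reads per sample. It was at 3.29, 3.52, 3.78 and 2.75 CPM in control replicates 1 to 4 and at 2.68, 2.79, 3.60 and 2.77 CPM in A20 siRNA replicates 1 to 4. The lowest control sample, replicate 4, lay among the A20 siRNA samples, and A20 siRNA replicate 3 lay among the control samples. The log2 fold change was -0.18 (standard error 0.13, edgeR adjusted p = 0.497), with a 95% interval from -0.45 to 0.078. In percent this interval ran from -26.7% to 5.57%, the widest downwards among the network genes. MYCN (ENSG00000134323.10, chromosome 2, 15940550 to 15947007), the paralog amplified in neuroblastoma, had 0 reads in all 8 samples. A count of 0 allows 3 counts, which correspond to between 0.0877 and 0.141 CPM at these depths, and this limit covers counting error only. MYC therefore made up 98.8% to 99.1% of the summed length-scaled level of the MYC genes in every sample.

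MAX, the shared partner of MYC and its antagonists, and MLX, which pairs with MXD1, MXD4, MNT, MLXIP and MLXIPL, were looked at next. Their group means also lay within the spread between replicates. MAX (ENSG00000125952.18, chromosome 14, 65006174 to 65102695) was at 85.9, 86.9, 89.1 and 90.3 CPM in control replicates 1 to 4 and at 83.8, 88.0, 88.8 and 86.0 CPM in A20 siRNA replicates 1 to 4. The lowest value was in A20 siRNA replicate 1 and the highest in control replicate 4. Its log2 fold change was -0.023, with a 95% interval from -0.081 to 0.034 and an adjusted p of 0.735 (edgeR's quasi-likelihood test). MLX (ENSG00000108788.11, chromosome 17, 42567072 to 42573239) was at 70.5, 70.6, 73.6 and 74.7 CPM with control siRNA and at 73.4, 74.1, 73.8 and 74.2 CPM with A20 siRNA. The A20 siRNA samples of MLX all lay between the second lowest and the highest control sample. Its log2 fold change was 0.031, with a 95% interval from -0.027 to 0.089 and an adjusted p of 0.633 (edgeR's quasi-likelihood test).

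The MXD genes encode small repressors that are usually induced when cells stop dividing and differentiate, MXD3 being more often tied to S phase. MXD1 (ENSG00000059728.10, chromosome 2, 69897688 to 69942945) was at 48.9, 51.0, 52.2 and 48.0 CPM in control replicates 1 to 4 and at 51.3, 50.5, 51.1 and 49.5 CPM with A20 siRNA. The A20 siRNA samples all fell inside the control range (log2 fold change 0.017, 95% interval -0.052 to 0.085). MXD4 (ENSG00000123933.15, chromosome 4, 2247432 to 2262109) was at 21.4, 21.5, 20.7 and 22.8 CPM with control siRNA and at 21.7, 22.6, 20.9 and 21.9 CPM with A20 siRNA. These too fell inside the control range (log2 fold change 0.015, 95% interval -0.078 to 0.11). MXD3 (ENSG00000213347.10, chromosome 5, 177301461 to 177312757) had 58 to 104 reads per sample and was at 2.58 to 3.67 CPM with control siRNA and 2.73 to 3.22 CPM with A20 siRNA. Its log2 fold change of -0.059 had a wide 95% interval, from -0.31 to 0.19. Exons of other genes, mainly PRELID1 on the opposite strand and RAB24 on the same strand, cover 43.7% of the exonic bases of MXD3, and the strand setting of the counting is not given in the sources used here, so its level is uncertain. Adjusted p-values of the 3 MXD genes were 0.850, 0.909 and 0.855 for MXD1, MXD4 and MXD3 (edgeR's quasi-likelihood test).

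MNT and MGA are the large antagonists. MNT (ENSG00000070444.14, chromosome 17, 2384073 to 2401104), a broadly expressed repressor that balances MYC in dividing cells, was at 22.0, 20.5, 20.3 and 21.01 CPM with control siRNA and at 20.5, 20.8, 22.6 and 22.6 CPM with A20 siRNA. A20 siRNA replicates 3 and 4 were above all control samples and replicates 1 and 2 were inside the control range. The log2 fold change was 0.035, with a 95% interval from -0.064 to 0.13 and an adjusted p of 0.768 (edgeR's quasi-likelihood test).

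MGA had the smallest p-value of the network genes. MGA (ENSG00000174197.16, chromosome 15, 41621134 to 41773081), which combines a T-box with a MAX-binding domain and is recurrently inactivated in tumors, was at 133.0, 121.1, 126.2 and 127.9 CPM in control replicates 1 to 4. It was at 135.9, 128.3, 134.2 and 132.3 CPM in A20 siRNA replicates 1 to 4. The groups overlapped, with control replicate 1 above A20 siRNA replicates 2 and 4. The means were 127.0 ± 4.90 CPM (SD, n = 4) and 132.7 ± 3.28 CPM (SD, n = 4), a log2 fold change of 0.062 (95% interval 0.0032 to 0.12, edgeR unadjusted p = 0.0397 and adjusted p = 0.283). MGA has 20074 bases of annotated exon, against a median of 4982 over tested genes. When each library was corrected for its trend with exonic length the log2 fold change of MGA was 0.0055 (adjusted p = 0.940), and with correction for length and GC content it was 0.014 (adjusted p = 0.828). Without control replicate 1 and A20 siRNA replicate 2, whose length trends were opposite to those of their groups, the log2 fold change was 0.10. The adjusted p of MGA was then 0.0268 (edgeR's quasi-likelihood test), the only setting of 19 in which a network gene was called. The length trend is negative in all controls kept there and positive in all A20 siRNA samples kept. In that setting the siRNA cannot be told apart from the length trend. In the 8 fits that each left out 1 sample, the adjusted p of MGA was between 0.0641 (without control replicate 1) and 0.622.

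**Figure D1:**
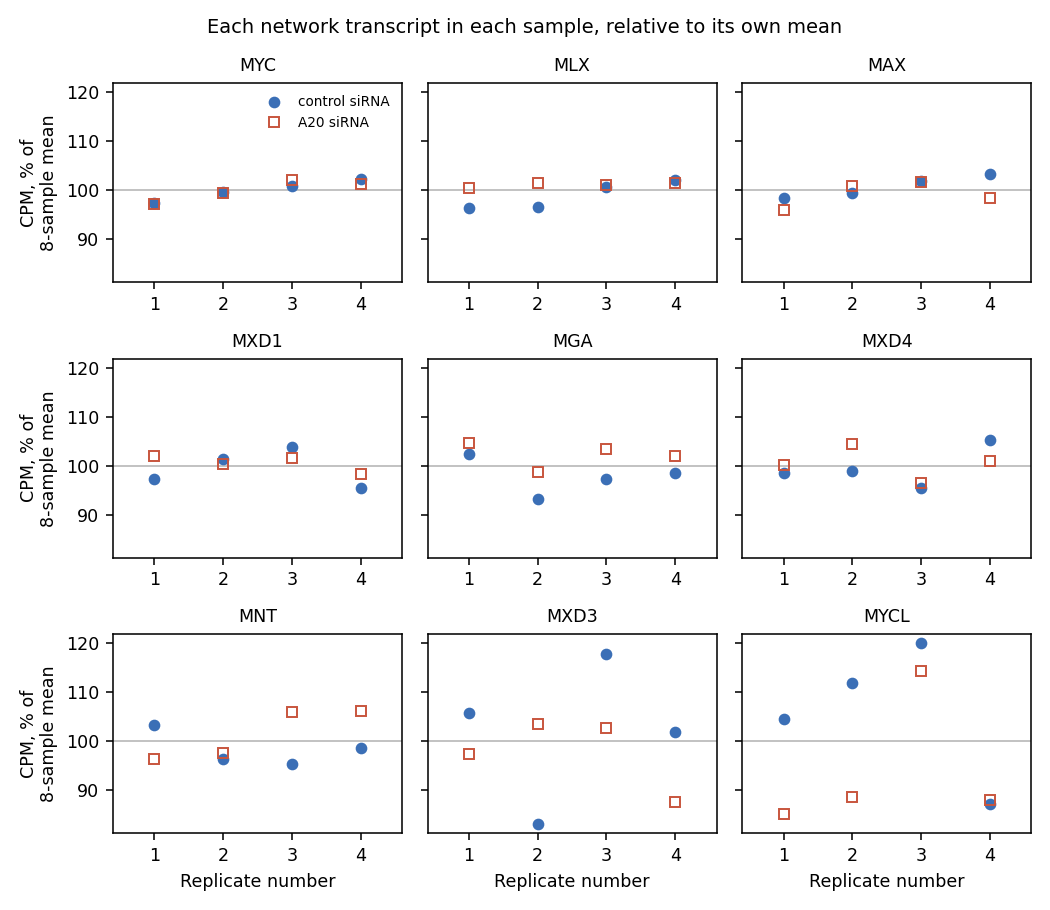
Level of each network transcript in each sample, as a percentage of its mean CPM over the 8 samples (y axis), by replicate number, which does not pair samples (x axis), with filled circles for control siRNA and open squares for A20 siRNA. MYC, MAX and MLX stay close to 100%, the circle of MGA for control replicate 1 lies among its squares, and MXD3 and MYCL, with 58 to 104 and 59 to 99 reads per sample, scatter most.

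**Figure D2:**
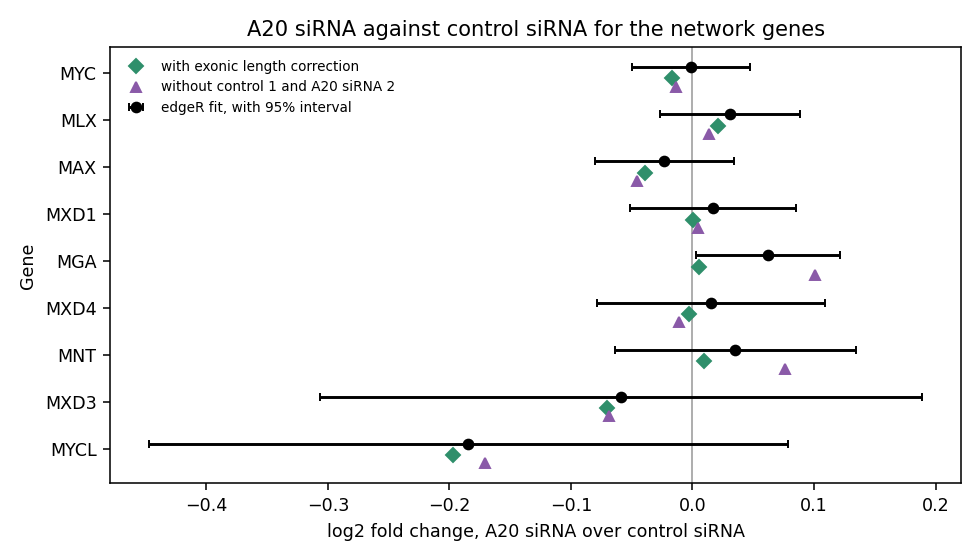
log2 fold change of A20 siRNA over control siRNA (x axis) for the 9 network genes with counts (y axis). Black circles with bars are edgeR estimates with 95% intervals, green diamonds are estimates after correction for exonic length, and purple triangles are estimates without control replicate 1 and A20 siRNA replicate 2. The interval of MYC runs from -0.050 to 0.047, and the estimate of MGA goes from 0.062 to 0.0055 with the length correction and to 0.10 without the 2 libraries.

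The coefficient of variation between control replicates was 2.13% for MYC, 2.26% for MAX, 2.95% for MLX, 3.61% for MNT and 3.86% for MGA, and it was 13.2% for MYCL and 14.1% for MXD3, the genes with the fewest reads. The 95% intervals ran from -5.44% to 2.41% for MAX and from -1.85% to 6.34% for MLX. For MXD3 it ran from -19.2% to 14.0%. Changes of the size seen for TNFAIP3 lay outside the interval of each of the 9 genes.

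Levels of the genes were compared with each other after division by exonic length, as RPKM (CPM per kilobase of annotated exon), with mean and SD over all 8 samples. MYC was highest, at 62.8 ± 1.23 RPKM (SD, n = 8), which placed it at the 95.6th percentile of tested genes. MLX followed at 17.2 ± 0.384 RPKM and MAX at 14.0 ± 0.335 RPKM. MXD1 was the most abundant antagonist among the network genes at 7.92 ± 0.219 RPKM, then MGA at 6.47 ± 0.244, MXD4 at 3.15 ± 0.111 and MNT at 2.45 ± 0.109 RPKM. MXI1, an MXD family member outside the chosen genes, was at 4.76 ± 0.175 RPKM and is not in this order. MXD3 and MYCL were lowest, at 0.656 ± 0.0710 and 0.634 ± 0.0904 RPKM, near the 16.5th and 16.1st percentiles, and these were the only neighbours in the order whose sample ranges overlapped. The lengths are those of all annotated exons together. Opposite-strand exons of other genes cover 18.2% of the exonic bases of MLX and 16.1% of those of MAX. As the strand setting is not given, the levels of MLX and MAX, and ratios to MAX, are also uncertain to some extent. With the longest annotated transcript as the length, the ranges of MLX and MAX (28.3 and 27.7 RPKM) and of MXD1 and MGA (9.02 and 8.91 RPKM) also overlapped, whereas MXD3 (1.37 RPKM) lay above MYCL (0.894 RPKM) without overlap.

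**Figure D3:**
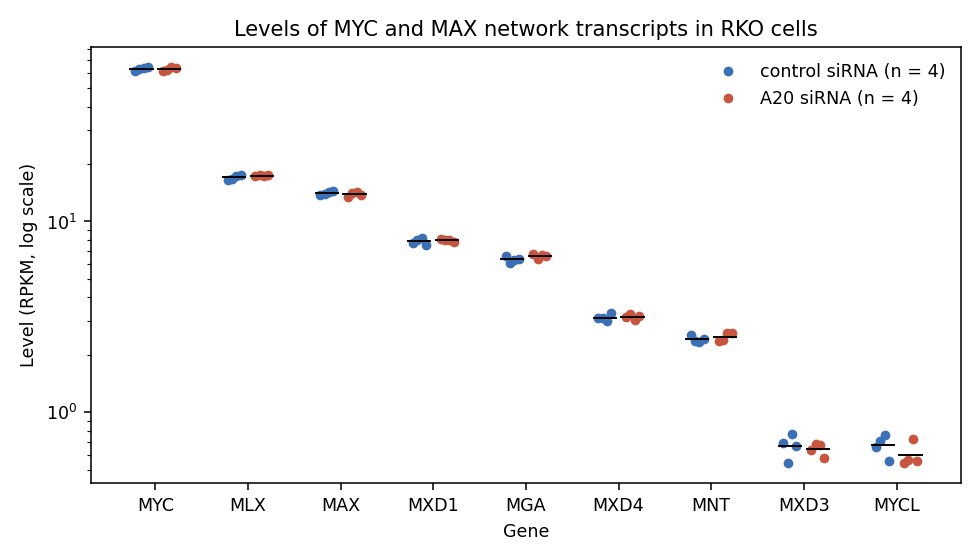
Level of the 9 network transcripts with counts (x axis) in RPKM on a log scale (y axis), 1 point per sample with blue for control siRNA and red for A20 siRNA, and black lines for the means of 4. MYC, at 61.1 to 64.3 RPKM, lies above all others, and MXD3 and MYCL lie lowest with overlapping ranges. MYCN had no count and is not drawn.

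The balance between the arms of the network was described by ratios of these length-scaled levels within each sample, without a test. The level of MYC was 4.50-fold that of MAX over the 8 samples, and the log2 ratio was between 2.15 and 2.17 with control siRNA and between 2.15 and 2.21 with A20 siRNA. MYC was 3.04-fold the summed level of MXD1, MXD3, MXD4, MNT and MGA, a sum that leaves out MXI1. The log2 of that ratio was between 1.57 and 1.66 with control siRNA and between 1.54 and 1.62 with A20 siRNA, and the ranges overlapped. MGA was 0.463-fold the level of MAX, and the log2 ratio was -1.15 ± 0.069 in the control group and -1.07 ± 0.064 after A20 siRNA (SD, n = 4 each), again with overlapping ranges. With the longest transcript as the length, MYC was 3.72-fold MAX and 3.59-fold the summed antagonists, so these ratios depend on the length used.

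The partners that stand around the 10 genes were described from 6 lists. Of 27 partners and MYC cofactors 26 were tested, 2 were higher and 0 were lower after A20 siRNA at an adjusted p under 0.05, and 11 had an unadjusted p under 0.05 (edgeR's quasi-likelihood test). Over all tested genes 0.634% were higher, 0.611% were lower and 16.2% had an unadjusted p under 0.05. The tested genes of this list had a median exonic length of 8075 bases, against 4982 over all tested genes. Whether length bears on the count of 11 was not tested. DESeq2 and limma-voom also called 2 each. NCOR1, a corepressor scaffold for histone deacetylases, rose from 36.2, 30.0, 28.4 and 28.5 CPM in control replicates 1 to 4 to 37.3, 37.2, 37.8 and 39.4 CPM with A20 siRNA, without overlap of the groups (log2 fold change 0.29, standard error 0.058, adjusted p = 0.0270). TRRAP, the scaffold through which MYC recruits histone acetyltransferases, rose from 328.4 ± 16.4 to 364.4 ± 14.7 CPM (SD, n = 4 each), although control replicate 1 lay inside the range of the A20 siRNA samples (log2 fold change 0.15, standard error 0.033, adjusted p = 0.0334). Both genes are long, with 15620 and 19972 bases of annotated exon. With the length correction NCOR1 had a log2 fold change of 0.24 (adjusted p = 0.00920) and TRRAP of 0.092 (adjusted p = 0.0522), so TRRAP was no longer called. Of the 8 fits leaving out 1 sample, NCOR1 was called in 3, those without A20 siRNA replicate 1, A20 siRNA replicate 2 or control replicate 1, and its adjusted p reached 0.107. TRRAP was called in 2, those without A20 siRNA replicate 2 or control replicate 1, and its adjusted p reached 0.123. Those are the 2 libraries whose length trend was opposite to the rest of their groups. MXI1, the remaining MXD family member, was at 28.1 ± 1.22 CPM in the control group and 28.1 ± 1.01 CPM after A20 siRNA (SD, n = 4 each). MLXIP, the MLX partner also called MondoA, was at 57.8 ± 1.82 and 61.0 ± 0.909 CPM (edgeR adjusted p = 0.205). MLXIPL, the MLX partner also called ChREBP, had 3 to 8 reads per sample and was under the filter.

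Among 18 genes of MYC protein turnover, 0 were called in edgeR, DESeq2 and limma-voom alike, against 1.25% of all tested genes in edgeR, and 2 had an unadjusted p under 0.05, against 16.2%. The smallest p-values were those of HUWE1, a ubiquitin ligase that acts on MYC, and USP36, a nucleolar deubiquitinase of MYC. HUWE1 was at 471.5 ± 39.0 CPM in the control group and 526.7 ± 22.8 CPM after A20 siRNA (SD, n = 4 each; edgeR adjusted p = 0.0614). It was called without A20 siRNA replicate 2 (edgeR adjusted p = 0.0281) or control replicate 1 (0.00197). Those are the 2 libraries whose length trend was opposite to the rest of their groups. HUWE1 has 17780 bases of annotated exon, and whether length bears on these calls was not tested. With the length correction its log2 fold change went from 0.16 to 0.11 (adjusted p = 0.0838). USP36 was at 114.9 ± 2.15 and 120.7 ± 2.42 CPM (SD, n = 4 each; edgeR adjusted p = 0.158), although its groups did not overlap.

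Of 11 partners of MGA in the variant Polycomb complex PRC1.6, 0 were called in edgeR, DESeq2 and limma-voom alike, and 1 had an unadjusted p under 0.05. Over all tested genes these shares were 1.25% in edgeR and 16.2%, and DESeq2 gave RYBP of the list no adjusted p. The 1 gene was TFDP2, a dimerization partner of E2F6, at 70.7 ± 3.98 CPM in the control group and 75.0 ± 1.47 CPM after A20 siRNA (SD, n = 4 each; adjusted p = 0.229 in edgeR, and 0.0474 without control replicate 1). TFDP2 has 11897 bases of annotated exon, and control replicate 1 is a library whose length trend was opposite to the rest of its group. PCGF6, the Polycomb subunit that defines the complex, was at 30.1 ± 0.881 and 28.6 ± 0.664 CPM (SD, n = 4 each; adjusted p = 0.354 in edgeR).

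Of 36 genes that MYC is known to activate, all were tested with edgeR, 2 were lower and 0 higher after A20 siRNA, and 9 had an unadjusted p under 0.05. The shares over all tested genes were 0.611% lower, 0.634% higher and 16.2% at an unadjusted p under 0.05. DESeq2 called 3, with no adjusted p for TERT and EIF4A1, and limma-voom called 2. LDHA, which makes lactate from pyruvate and is also a glycolytic and hypoxia-induced gene, fell from 1583, 1679, 1640.5 and 1718 CPM in control replicates 1 to 4 to 1513, 1505, 1493 and 1574 CPM with A20 siRNA (log2 fold change -0.12, standard error 0.025, adjusted p = 0.0276). CDK4, the kinase that drives entry into S phase with D-type cyclins, fell from 169.4 ± 4.16 to 155.3 ± 6.47 CPM (SD, n = 4 each; log2 fold change -0.12, standard error 0.028, adjusted p = 0.0390). For both genes the groups did not overlap, which held for 7.61% of all tested genes. The groups also did not overlap for HSPE1, TFRC and TFB2M (lower) and NOLC1 and NOP56 (higher), which were not called. Of the 8 fits leaving out 1 sample, LDHA was called in 4, not without A20 siRNA replicate 3 or control replicates 2, 3 or 4 (adjusted p up to 0.112). CDK4 was called in 3, not without A20 siRNA replicates 3 or 4 or control replicates 2, 3 or 4 (adjusted p up to 0.148). The nucleolar targets of the list did not pass, among them FBL (adjusted p = 0.161 in edgeR) and NPM1 and NCL, and they went in both directions. FBL and NPM1 had log2 fold changes of -0.079 and -0.031, and NOP56 and GNL3 of 0.042 each. Over the list 23 genes were below 0 and 13 above, with a median log2 fold change of -0.023.

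Of 12 genes that MYC is known to repress 8 were tested, and 1 was lower and 0 higher with edgeR, against 0.611% and 0.634% of all tested genes. In edgeR 2 had an unadjusted p under 0.05, NDRG1 and FTH1, against 16.2% of all tested genes. DESeq2 called 0, with no adjusted p for CEBPA, and limma-voom called 1. NDRG1, a gene induced by hypoxia and stress, fell from 108.4, 99.5, 94.0 and 119.9 CPM in control replicates 1 to 4 to 83.1, 67.6, 75.1 and 101.5 CPM with A20 siRNA (log2 fold change -0.37, standard error 0.083, adjusted p = 0.0338 in edgeR and 0.219 in DESeq2). The groups overlapped, with A20 siRNA replicate 4 above control replicates 2 and 3, and NDRG1 was not called without A20 siRNA replicate 3, control replicate 2 or control replicate 4 (adjusted p = 0.121, 0.0827 and 0.141). The cyclin-dependent kinase inhibitors CDKN1A, CDKN1B and CDKN2B had log2 fold changes of -0.01, -0.03 and -0.01 and did not pass. Of 7 targets of MLX with MLXIP or MLXIPL 6 were tested, 0 were called in edgeR, DESeq2 and limma-voom alike, and 1 had an unadjusted p under 0.05. These counts stand beside 1.25% and 16.2% of all tested genes in edgeR. The 1 gene was TXNIP, the glucose-responsive inhibitor of thioredoxin, at 79.9 ± 3.50 CPM in the control group and 75.2 ± 2.80 CPM after A20 siRNA (SD, n = 4 each; adjusted p = 0.198 in edgeR). RGS16, a regulator of G protein signaling, was at 6.90 ± 0.566 and 7.52 ± 0.586 CPM (adjusted p = 0.491 in edgeR).

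Medians over the tested members of the lists were small, at log2 fold changes of 0.026 for partners and cofactors, 0.011 for turnover, -0.019 for PRC1.6, -0.023 for activated targets, -0.019 for repressed targets and 0.0026 for MLX targets, beside 0.0027 for all tested genes. With the length correction the medians of the partners and cofactors, of turnover and of the MLX targets turned negative, to -0.0026, -0.012 and -0.025. The median of all tested genes with that correction is not given here, so these changes of sign cannot be read as particular to the lists.

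**Figure D4:**
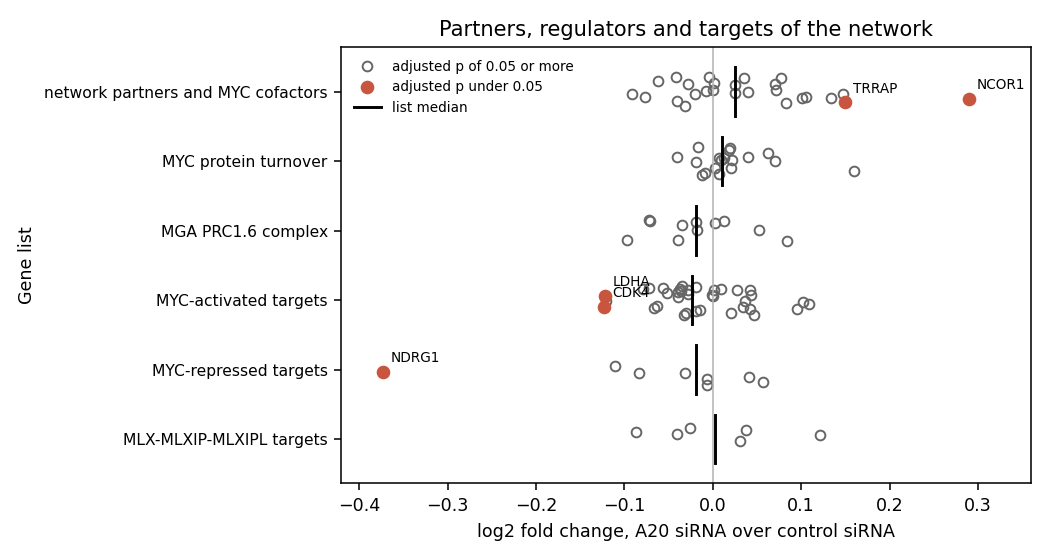
log2 fold change of A20 siRNA over control siRNA (x axis) for each tested gene of the 6 lists (y axis). Filled red points have an adjusted p under 0.05, open points do not, and black bars are list medians. NCOR1 and TRRAP lie to the right at 0.29 and 0.15, LDHA and CDK4 at -0.12 and NDRG1 at -0.37. The other points spread around 0, some as far out as called ones, such as HUWE1 at 0.16 and HSPE1 at -0.12.

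The genes whose pattern over the 8 samples was most like that of MYC, MAX and MGA were found by the root mean square difference of log2 CPM values, each centred on its own mean, among 13403 other tested genes. For MYC these were GORASP2, ANKRD40 and GNG12, with differences of 0.0081, 0.0084 and 0.0090 on the log2 scale. For MAX they were MRPS6, PPM1G and YBX3 (0.0072, 0.010 and 0.011), and for MGA they were TTC23, BRD9 and NSD1 (0.014, 0.015 and 0.015). The median difference over all genes was 0.071 for MYC, 0.074 for MAX and 0.085 for MGA. MYC itself varied around its mean by only 0.027, so likeness to MYC mainly describes genes that varied little.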

How the data were processed

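RNAseq libraries from RKO cells (4 for control siRNA, 4 for A20 siRNA) were grouped and numbered by their sample titles. The authors trimmed reads with Trimmomatic, mapped them to GRCh38.p7 with STAR and deposited raw counts of uniquely mapping reads for each of 57992 GENCODE genes. The GENCODE release and strand setting are not given in the sources used here. Identifiers were matched without version to GENCODE release 44, which gave 56948 symbols, exonic lengths and coordinates.

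The test used edgeR 4.0.16 (R 4.3.3) after filterByExpr (minimum count 10, 13412 genes kept), TMM normalization, the quasi-likelihood test without covariates and Benjamini-Hochberg adjustment over all tested genes at a threshold of 0.05. Standard errors came from the log2 fold change and its F statistic, and 95% intervals from these. Alternatives were RLE normalization, unadjusted library totals (for levels and ratios), other filters, DESeq2 1.42.0, limma-voom (limma 3.58.1), the replicate number as a block, loess corrections (span 0.5) for exonic length and GC content, and leaving out samples. The pipeline was tested on simulated data. TNFAIP3 was also tested on log2 CPM with a two-sided exact permutation test, which gave p = 0.0286 (the smallest that 4 against 4 samples allow).

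The 10 genes and the lists were chosen with earlier results of these data known. Genes named from a list were the 2 of smallest p-value per direction among those called or, where none was called, the 2 of smallest p-value. For MYC, MAX and MGA the 3 genes of nearest pattern were named. MXI1, MLXIP, MLXIPL, FBL, NPM1, NCL, NOP56, NOLC1, GNL3, HSPE1, TFRC, TFB2M, CDKN1A, CDKN1B and CDKN2B were named after their values were seen. No replicate pair agreed within counting error (chi-square per degree of freedom from 1.32 to 3.67).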

Additional observations from a re-analysis of the deposited data

Results flagged for a closer look

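Among 50 groups of 4 samples, 5 held a sample far from the other 3 by Dixon's criterion, where chance gives about 2.5. In each the value given is the gap to the nearest other sample as a share of the range of the group. MYCL in A20 siRNA replicate 3 was at 3.60 CPM against 2.68 to 2.79 in the others (0.881). For the same sample, the share of MYC among the MYC genes was 98.88% against 99.11% to 99.13% (0.913), a value that contains the MYCL count. The log2 ratio of MYC to MAX in control replicate 2 was 2.170 against 2.154 to 2.156 (0.894). The log2 ratio of MGA to MAX in control replicate 1 was -1.05 against -1.20 to -1.18 (0.839), and this is a library whose length trend was opposite to the rest of its group. TNFAIP3 in A20 siRNA replicate 2 was at 3.01 CPM against 3.40 to 3.47 (0.847).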

How the results depend on the processing

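No network gene was called under the alternatives chosen at the start, among which DESeq2 gave MYCL and MXD3 no adjusted p. Without control replicate 1 and A20 siRNA replicate 2, an alternative added after seeing the data, 1 was called, MGA. That alternative confounds the siRNA with the length trend of the libraries. MYC, MXD1, MXD3, MXD4 and MNT changed sign under some alternatives, whereas MAX, MLX, MYCL and MGA kept theirs in all 19. The log2 fold change of MXD4 was -0.0025 with the length correction, -0.012 with length and GC content, -0.011 with the block as well and -0.011 without the 2 libraries, and that of MNT was -0.0033 with length and GC content and -0.0021 with the block as well. With 1 sample left out, MYC ranged from -0.017 to 0.0089, MXD1 from -0.0026 to 0.036, MXD3 from -0.15 to 0.013 and MXD4 from -0.0060 to 0.040, and without a change of sign MYCL ranged from -0.29 to -0.12, MAX from -0.038 to -0.0087, MNT from 0.013 to 0.060, MGA from 0.038 to 0.084 and MLX from 0.015 to 0.044. TNFAIP3 kept its direction and, where it received an adjusted p, its call, from -0.77 to -0.67 with 1 sample left out. DESeq2 gave it no adjusted p, with a log2 fold change of -0.72 without and -0.25 with its shrinking prior.

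Counts over all genes depended on the processing, and the cause was not tested. Against 82 lower and 85 higher genes, edgeR called 310 and 314 when low counts were kept, 212 and 262 when the replicate number was a block, 410 and 197 when that block was joined to the correction for length and GC, and 483 and 614 without the 2 libraries. Lower genes numbered 230 with the length correction and 236 with length and GC. Leaving out 1 sample gave 6 to 430 lower and 6 to 567 higher genes, most without control replicate 1 and fewest without A20 siRNA replicate 3. Same-numbered samples deviated together only weakly (correlations from -0.0098 to 0.084), so the numbers were not taken to pair samples.

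Of the partners and cofactors, 1 was lower with either correction, without a filter and with the block, and 2 with block and correction and without the 2 libraries. Higher members numbered 5 without a filter and with the block, 1 with either correction and 7 without the 2 libraries. With 1 sample left out, 0 to 2 were lower and 0 to 7 higher. For turnover, 1 was higher without a filter, with the block, with block and correction and without the 2 libraries, and 0 to 1 with 1 sample left out. For PRC1.6, 0 to 1 were higher with 1 sample left out. Activated targets had 6 lower members without the 2 libraries, 5 with block and correction and 0 to 6 with 1 sample left out, and 1 higher member without a filter, with the block and with block and correction. Repressed targets had 2 lower members without a filter, 0 in DESeq2 with and without its prior, and 0 to 1 with 1 sample left out.

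With the longest transcript as length, RPKM levels were 103.1 for MYC, 28.3 for MLX, 27.7 for MAX, 9.02 for MXD1, 8.91 for MGA, 5.13 for MXD4, 4.32 for MNT, 1.37 for MXD3 and 0.894 for MYCL. Depth limits MYCL and MXD3 most.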
